A study of Mus musculus with 12 samples.

Results

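Granulocytes, the most mature cells of the neutrophil lineage in the series, were set against promyelocytes, its earliest committed stage. The comparison used 6 of the 12 arrays, 3 of granulocytes and 3 of promyelocytes, chosen by their labels and not by any measured value. It covered 19937 genes, each read from 1 of the 34760 rows of the deposited table, so every gene with a row of its own was included. Both came from C57BL/6 bone marrow, and the study describes no treatment or expansion of these cells after sorting. In the study's sort, granulocytes lacked cKit and CD34 and carried the most Gr-1, while promyelocytes lacked Sca1 and lineage antigens such as B220 and CD3, carried cKit, CD34 and the Fcγ receptors CD16 and CD32, and were low for Gr-1. The study's methods list the lineage and Sca1 antibodies in a panel used for both populations. The remaining 6 arrays, of myelocytes and of the stem and progenitor fraction named LSK cells, entered the model as the source of the shared error estimate and are given only where a level between the stages is of use. The study used this pair of stages to look for messages that moved against microRNAs during granulopoiesis. The gates define each population only by its surface, so cells of other lineages that share that surface can be present. The study also re-analysed the sorted cells for purity and examined stained promyelocytes and granulocytes under the microscope. The labels call the arrays biological replicates without saying that they came from separate animals. The p-values therefore rest on array-to-array spread that may be technical in part, and the number of arrays limits the precision of every difference.

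Granulopoiesis turns a dividing cell that fills its first granules with proteases and peroxidase into a cell that no longer divides and stores further sets of granules. The contents of each granule are set by the messages present while that granule forms, so granule genes report the stage at which a cell was caught. A promyelocyte devotes much of its RNA to making ribosomes, proteins and DNA, whereas the mature neutrophil carries the receptors, kinases and adhesion molecules used to find and engulf microbes.

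Values are log2 signals after the authors' RMA normalization, and each difference is granulocytes minus promyelocytes on that scale, with its standard error from a limma fit. Calls required 2-fold or more together with a limma p, adjusted after Benjamini-Hochberg over all genes, under 0.05, and a gene described below as not passing missed one of these limits. Signals at or below 4.51 were taken as dim, since 95% of the means of 1194 olfactory and vomeronasal receptor genes lay at or under that level. Where 1 group lay there, the fold is given as a lower bound from the brighter mean against 4.51. A probe set has its own response, so levels are compared between groups for the same gene and never between genes.

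Over all genes, 2020 were higher in granulocytes, or 10.1% of those tested, and 3247 were lower, or 16.3%. The arrays of both groups did not overlap for 2017 of the genes that were higher and for 3230 of those that were lower, beside 57.2% of all genes tested. The decreases were more numerous and the extreme increases larger: 758 genes rose and 1364 fell by at least 4-fold, while 155 rose and 104 fell by at least 16-fold. The median difference of all genes was 0.13, and all list medians below are to be read against it. Counts of called list members are to be read beside the shares over all genes, 10.1% higher and 16.3% lower. Both means were dim for 6176 genes (31%). Arrays of granulocytes correlated with each other at 0.987 to 0.991 and those of promyelocytes at 0.981 to 0.991 across genes, which are not independent replicates, against 0.809 to 0.835 between the groups. The split of calls depended on scaling. Of all calls 38.4% were increases as deposited, 34.7% with arrays centred on their medians and 48.3% with arrays centred on their 75th percentiles, where the median of all genes was 0.36.

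**Figure D1:**
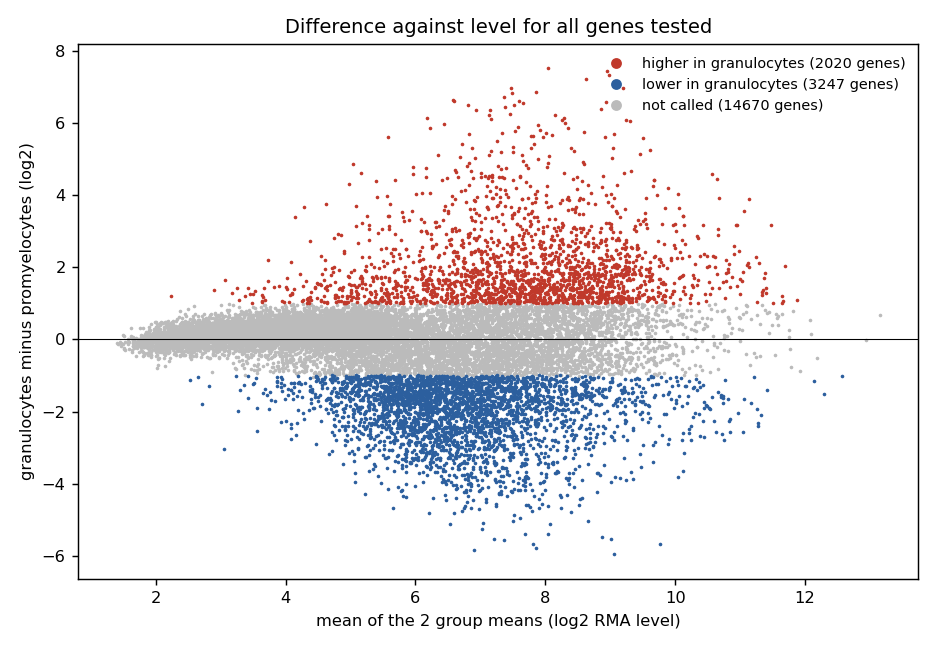
Each point is 1 of the 19937 genes, placed by its mean log2 signal over the 6 arrays and its difference, granulocytes minus promyelocytes, also on the log2 scale. Coloured points were called, 2020 of them higher and 3247 lower in granulocytes.

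The antigens used for sorting served as a check of the labels and are not findings. Ly6g, which carries the Gr-1 epitope, stood at 12.41, 12.33 and 11.99 on granulocyte arrays 1, 2 and 3, against 5.11, 5.04 and 4.86 on promyelocyte arrays 1, 2 and 3. Kit read 6.94, 7.45 and 7.48 in granulocytes and 9.64, 10.24 and 9.37 in promyelocytes. Cd34 read 5.34, 4.78 and 4.82 in granulocytes and 10.48, 11.03 and 9.67 in promyelocytes. All 3 ran in the direction of the gates on every array. Over the 9 antigen genes measured, 5 were higher and 2 lower in granulocytes. Fcgr3, which encodes CD16, was higher in granulocytes although CD16 was part of the promyelocyte gate. It read 10.01, 10.30 and 9.44 in granulocytes and 8.70, 8.29 and 7.89 in promyelocytes. Among the CD3 chains that the gate selects against, Cd3d averaged 5.95 in granulocytes and a dim 4.07 in promyelocytes, Cd3g averaged 4.74 in granulocytes and a dim 3.26 in promyelocytes, and Cd3e did not pass.

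Markers of other cell types moved as well, and the promyelocyte arrays were not alike in them. Of 8 eosinophil markers 4 were lower and 1 was higher, beside 16.3% lower and 10.1% higher over all genes, with a summed level (log2 of the summed linear signals) of 8.54 to 9.24 on the granulocyte arrays and 9.03 to 12.59 on the promyelocyte arrays. Epx, the eosinophil peroxidase, read 4.76, 5.30 and 4.25 in granulocytes, against 9.81, 5.06 and 10.19 on promyelocyte arrays 1, 2 and 3. Prg2, the eosinophil major basic protein, read 7.02, 7.71 and 5.29 in granulocytes and 11.37, 6.97 and 11.46 in promyelocytes. Promyelocyte array 2 thus lay within the granulocyte range for both genes while arrays 1 and 3 lay far above it. Ear6, an eosinophil ribonuclease, differed by -2.13, by -3.66 without promyelocyte array 2 and by -1.03 without promyelocyte array 3, and its call was also lost without promyelocyte array 1 (-1.71) or any single granulocyte array (-1.98 to -2.34). The call of Ear6 was lost as well without most single arrays of the other stages, with 75th percentile centring, quantile or loess normalization or the 6 arrays alone, and with array weights (-1.04). Of 12 basophil and mast cell markers 6 were lower and 1, Hdc (1.82), was higher, beside the same shares over all genes. The summed level was 11.62 to 11.84 in granulocytes and 11.37 to 12.67 in promyelocytes. The mean log2 level of the list did not overlap, at 4.9 to 5.14 in granulocytes and 6.12 to 7.08 in promyelocytes. The basophil protease Mcpt8 read 5.55, 6.06 and 6.01 in granulocytes and 10.56, 8.33 and 9.77 in promyelocytes. Prss34, another basophil protease, read 6.06, 6.84 and 6.51 in granulocytes and 11.16, 6.67 and 9.77 in promyelocytes, and its difference of -2.73 was -1.75 without promyelocyte array 1. Fcer1a, the binding chain of the IgE receptor, was dim in granulocytes at 3.39 and read 7.11, 3.25 and 5.66 in promyelocytes, and its difference of -1.95 was -1.06 without promyelocyte array 1 and -2.99 without array 2. The call of Fcer1a was lost without promyelocyte array 1 or 3 or any single granulocyte array, without some arrays of the other stages, and with array weights or 75th percentile centring. In bulk RNA fewer cells of a type and less RNA per cell cannot be told apart.

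Of 19 monocyte, macrophage and dendritic markers 6 were lower and 5 higher, with a summed level of 10.99 to 11.32 in granulocytes and 12.24 to 12.91 in promyelocytes. The monocyte genes F13a1 (-4.79), Ly86 (-3.83) and Ms4a6c (-3.72) were lower, whereas the macrophage genes Adgre1 (1.90) and C1qb (1.18) were higher, the last not called without granulocyte array 2 (0.73) or promyelocyte array 1 (1.08). Erythroid markers had 1 higher and 1 lower of 8, with sums of 8.83 to 9.95 in granulocytes and 9.54 to 10.39 in promyelocytes. Differences within the list ran from -2.59 to 1.59. Slc4a1, the band 3 anion exchanger of red cells, read 6.38, 6.79 and 8.29 in granulocytes and 5.23, 5.76 and 5.71 in promyelocytes, so that its difference of 1.59 was 1.02 without granulocyte array 3. Of 11 T and NK cell markers 2, the CD3 chain genes Cd3d and Cd3g given above, were higher and 1, Nkg7 (-5.39), was lower. The list summed to 8.35 to 8.44 in granulocytes and 10.53 to 11.20 in promyelocytes. Its mean log2 levels overlapped, at 4.68 to 4.71 in granulocytes and 4.51 to 4.74 in promyelocytes. Of these 11 genes 5 were dim in both groups, among them Cd4, Cd8b1, Klrb1c and Ncr1. B cell markers summed to 8.12 to 8.21 in granulocytes and 8.25 to 8.69 in promyelocytes. Of 11 measured 5 were dim in both, Cd79a, Ebf1 and Ms4a1 among them, and 1, Cd79b (-1.63), was called lower. Megakaryocyte markers (2 of 6 lower, sums of 7.84 to 8.08 in granulocytes and 8.26 to 8.86 in promyelocytes) and stromal and endothelial markers (1 of 10 lower, 8.40 to 8.67 in granulocytes and 8.19 to 8.63 in promyelocytes) had no member called higher. Pf4, a platelet chemokine among the megakaryocyte markers, differed by -1.05, or by -0.59 without promyelocyte array 2, and its call was lost there, without any single granulocyte array and with 75th percentile centring (-0.82). The part of any of these cells in the results that follow was not tested.

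**Figure D2:**
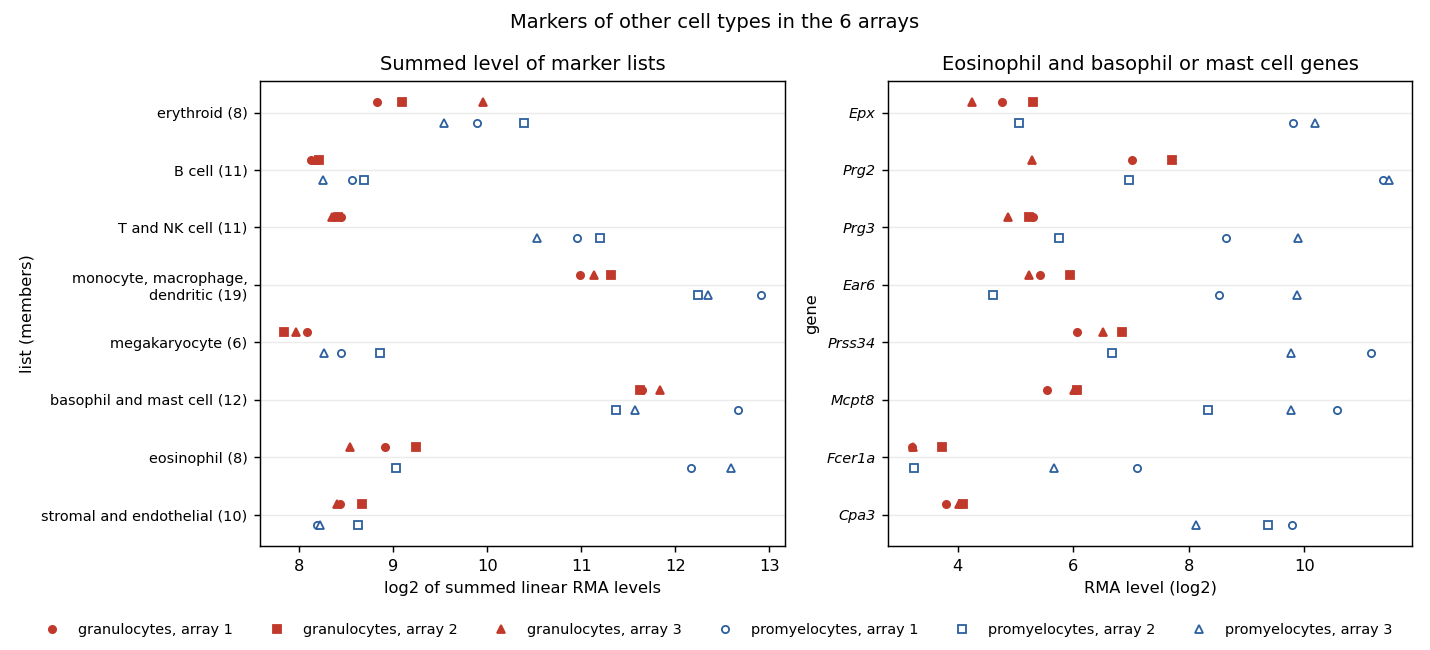
Summed levels of the marker lists of other cell types, as log2 of the summed linear signals, and log2 signals of 8 eosinophil, basophil and mast cell genes. The level runs from left to right. Within each row granulocytes are drawn above promyelocytes, with 1 symbol for each array number. On promyelocyte array 2, Epx (5.06) and Prss34 (6.67) lay inside the range of the granulocyte values. On promyelocyte arrays 1 and 3 the values of both genes were far higher.

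The largest increases were in matrix proteases, secreted inflammatory proteins and surface receptors. Mmp9, the gelatinase stored in tertiary granules, read 12.74, 12.57 and 12.73 in granulocytes, against 5.26, 5.66 and 4.73 in promyelocytes. Mmp8, the neutrophil collagenase, read 12.67, 12.79 and 12.50 in granulocytes, against 5.53, 5.71 and 4.71 in promyelocytes. No array of either group came within 6 log2 units of the other for these 2 genes. The difference was 7.46 ± 0.22 for Mmp9 (176-fold, adjusted p = 1.58e-12) and 7.34 ± 0.24 for Mmp8 (162-fold, adjusted p = 2.83e-12). The interleukin-1 family cytokine gene Il1f9 read 11.73, 11.83 and 11.84 in granulocytes and a dim 4.45, 4.19 and 4.19 in promyelocytes, which was at least 156-fold higher. Retnlg, a resistin-like secreted protein, rose by 6.97 ± 0.25 (126-fold). The carcinoembryonic antigen family gene Ceacam10 (at least 87.3-fold), the schlafen gene Slfn1 (at least 110-fold) and the chemokine receptor gene Ccr1 (at least 74.3-fold) all rose and were dim in promyelocytes. So did Pla2g7, a phospholipase that breaks down platelet activating factor (at least 84.0-fold), the retroviral-like protease gene Asprv1 (at least 86.5-fold), Scrg1 and the lectin-like receptor gene Klra2 (each at least 41.8-fold). Slfn4, which was bright enough on both sides for a direct fold, rose by 6.60 ± 0.20 (96.9-fold).

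The largest decreases joined the proteases of the first granules with genes of growth. Ctsg, which encodes cathepsin G, read 6.11, 6.68 and 5.44 in granulocytes, against 12.31, 12.25 and 11.56 in promyelocytes. Mpo, the myeloperoxidase gene, read 7.27, 7.50 and 5.99 in granulocytes, against 12.74, 12.84 and 12.22 in promyelocytes. The third array was the lowest of its own group for both genes, and the groups were nonetheless over 4 log2 units apart. Ctsg fell by 5.97 ± 0.63 (62.5-fold, adjusted p = 7.6e-07), and Mpo fell by 5.68 ± 0.37 (51.1-fold, adjusted p = 3.64e-09). Myc, the transcription factor that drives growth and division, read 4.39, 4.82 and 4.53 in granulocytes and 10.23, 10.51 and 9.67 in promyelocytes. It fell by 5.56 ± 0.26 (47.0-fold, adjusted p = 8.77e-11) to just above the dim level. Gria3, a glutamate receptor subunit, was dim in granulocytes at 3.98 and averaged 9.82 in promyelocytes, a difference of at least 39.8-fold. Cst7, which encodes the protease inhibitor cystatin F (at least 44.1-fold lower), and Nkg7, a protein of cytotoxic granules (42.0-fold lower), fell beside the proteases. The growth genes among the largest decreases were Nop58, Dkc1, Pa2g4 and Cdk4, taken up with their groups below, and Uck2, a uridine-cytidine kinase, which fell by 5.04 ± 0.20 (32.8-fold). Cpa3, the mast cell carboxypeptidase, was also among them, at a dim 3.97 in granulocytes and 9.79, 9.38 and 8.13 in promyelocytes.

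**Figure D3:**
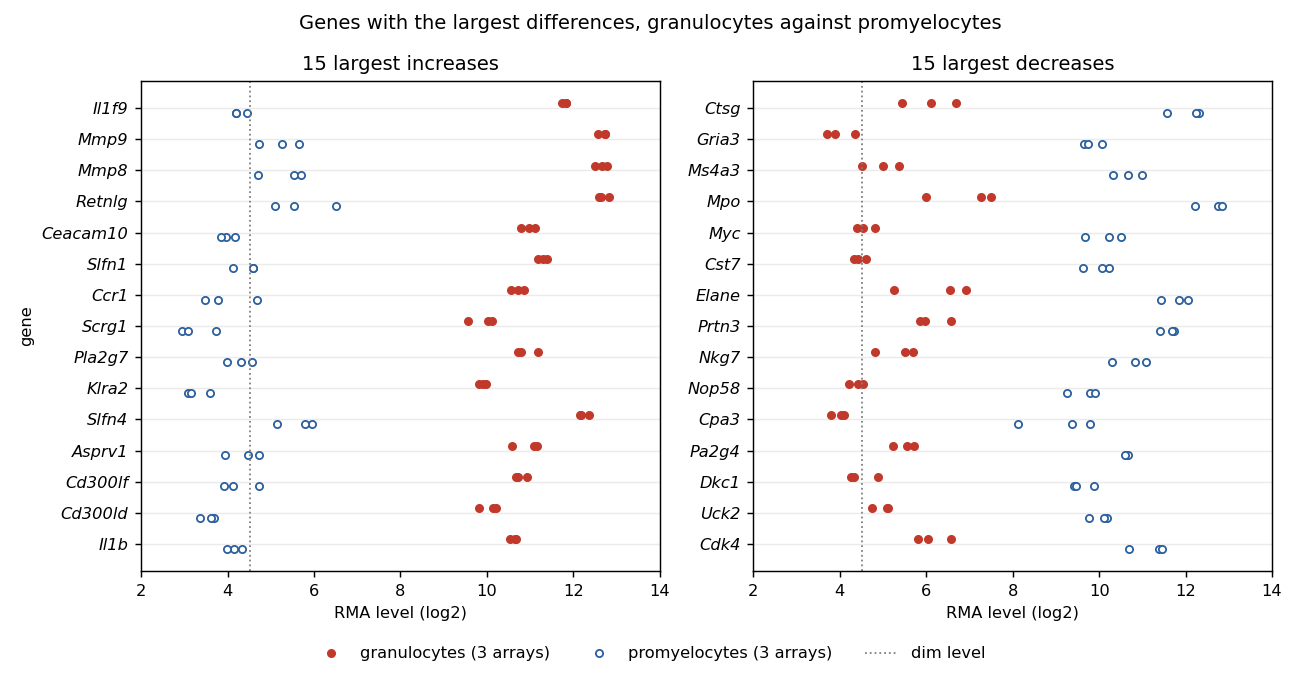
Log2 signal on each granulocyte array (3 points) and promyelocyte array (3 points) for the 15 largest increases and the 15 largest decreases left by the naming rule given below, with the dim level of 4.51 as a line. The groups do not overlap for any gene shown, and for 11 of the 15 increases the promyelocyte mean was below the line.

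The lists of granule genes differed in direction. Of 11 genes on the primary granule list, not all of which encode granule proteins, 8 fell and 3 did not pass, with a median of -3.18. Besides Ctsg and Mpo, Elane, the neutrophil elastase, fell by 5.53 ± 0.55 (46.1-fold), Prtn3, proteinase 3, fell by 5.49 ± 0.38 (44.8-fold), and Ms4a3, a membrane protein of early granulocyte precursors, fell by 5.69 ± 0.66 (51.7-fold). Prss57, a serine protease of the same family, fell by 2.95 and Ctsc, the cathepsin that activates these proteases, fell by 2.01 ± 0.25 (4.04-fold). The exceptions were the protease inhibitor Serpinb1a (0.23 ± 0.25), the granule proteoglycan Srgn (0.15 ± 0.22) and Bpi, which was dim in both groups. Array spread in this group was wide on the granulocyte side, since Elane read 6.55, 6.93 and 5.26 there.

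Secondary granule genes went the other way, with 15 of 16 higher and a median of 3.95. Lactoferrin, Ltf, read 12.94, 12.86 and 12.82 in granulocytes and 9.00, 7.73 and 8.09 in promyelocytes. The cathelicidin gene Camp read 12.32, 12.17 and 11.17 in granulocytes and 8.86, 6.77 and 6.74 in promyelocytes. Promyelocyte array 1 was the highest of its group for both, and over the whole list its mean level was 7.80, beside 6.95 and 6.99 on promyelocyte arrays 2 and 3. Ltf rose by 4.60 ± 0.24 (24.2-fold) and Camp rose by 4.43 ± 0.42 (21.6-fold). Chil1, a chitinase-like protein (6.39 ± 0.16, 84.1-fold), the granule glycoprotein Olfm4 (5.65 ± 0.20, 50.3-fold), the neutrophil surface protein Cd177 (5.26) and the siderophore-binding lipocalin Lcn2 (3.89) rose too, and the antimicrobial protein gene Ngp (3.56) did so from promyelocyte values of 10.44, 8.85 and 8.55. Only Ltbp1 did not pass (0.40 ± 0.18). Myelocyte means were already at the granulocyte level for several of these genes, with Ltf at 13.15 and Lcn2 at 13.19. Orm1, an acute phase glycoprotein, stood apart at 4.78 in promyelocytes, 10.91 in myelocytes and 7.71 in granulocytes.

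The promoter of Mmp8, the largest increase among secondary granule genes, is shown as the example of genes that rose, and its letters hold both myeloid motifs that were searched. The 300 bases run from 250 before to 50 after the start of the gene on the + strand, taken from RefSeq in build GRCm38.p6 at chr9:7558179-7558478, and the capitals mark a PU.1 motif (GAGGAAG on the other strand) and a C/EBP motif (TTGCNNAA).
Mmp8: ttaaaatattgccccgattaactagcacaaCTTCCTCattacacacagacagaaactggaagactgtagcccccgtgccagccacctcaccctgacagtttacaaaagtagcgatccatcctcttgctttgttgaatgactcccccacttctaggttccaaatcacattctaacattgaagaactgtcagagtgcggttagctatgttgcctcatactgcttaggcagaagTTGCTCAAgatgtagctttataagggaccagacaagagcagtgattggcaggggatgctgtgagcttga
A match is a description of the letters and not a shown binding site.

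Of 12 genes on the tertiary granule and secretory vesicle list, not all of which encode granule proteins, 8 were higher and 1 was lower, with a median of 4.74. After Mmp9, the sheddase gene Adam8 rose by 6.24 ± 0.18 (75.6-fold), the membrane-bound protease gene Mmp25 by 6.10 ± 0.15 (68.8-fold) and the histone deiminase gene Padi4 by 5.09 ± 0.23 (34.2-fold). Arg2, a mitochondrial arginase, was dim in promyelocytes and rose at least 36.2-fold. Hpse, the heparanase gene, fell by 2.67 ± 0.21 (6.36-fold). Alpl and Qpct did not pass, and Cd14 missed the fold limit at 0.99. Of 6 NADPH oxidase genes, whose product makes superoxide in the phagosome, 5 rose and Rac1 (0.43) did not pass. The catalytic subunit gene Cybb rose by 3.19 ± 0.25 (9.12-fold), Ncf4 by 2.51, Ncf1 by 2.36 and Cyba by 2.05. The calcium-binding S100 and annexin genes were mixed, with 7 of 16 higher and 3 lower, beside 10.1% and 16.3% of all genes. S100a9 read 13.05, 12.86 and 12.70 in granulocytes, against 9.64, 7.80 and 7.83 in promyelocytes, and S100a8, its partner in calprotectin, rose by 3.94 ± 0.28. S100a6 had the widest rise of the list at 6.15 ± 0.31 (70.8-fold), while S100a10 fell by 3.45 ± 0.37 (10.9-fold).

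Surface receptors rose in most of the families measured. Paired receptors carry either inhibitory or activating tails. Of 15 genes on their list, which also held adaptors and Fc receptors, 14 rose, with a median of 4.80. Cd300lf (at least 76.9-fold) and Cd300ld (at least 46.8-fold) rose and were dim in promyelocytes, and the inhibitory receptor gene Pirb rose by 5.67 ± 0.20 (50.8-fold). The adaptor genes Tyrobp (2.32) and Fcer1g (2.08) rose, and Fcgr1, the high affinity IgG receptor, did not pass (0.11). Of 13 chemokine and chemoattractant receptors 10 rose and 1 fell, with a median of 3.00. Cxcr2, which draws neutrophils from the marrow towards its chemokines, read 12.42, 12.29 and 12.20 in granulocytes, against 6.69, 7.51 and 5.92 in promyelocytes. C5ar1, the receptor of complement C5a, rose by 5.90 ± 0.15 (59.9-fold), and Cxcr4, which holds cells in the marrow, rose by 1.20 ± 0.20 but by 0.96 without promyelocyte array 3, under the fold limit. Ccr2, a chemokine receptor of monocytes, fell by 2.72 ± 0.49 (6.59-fold), with 5.40, 6.19 and 5.26 in granulocytes and 9.23, 8.28 and 7.50 in promyelocytes, and it moved with the monocyte genes given above.

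Pattern recognition receptors rose in 15 of 20 cases, with a median of 2.80, or 2.66 when dim means were set to 4.51. Clec4d, a C-type lectin, read 11.32, 11.34 and 11.26 in granulocytes, against 5.21, 5.75 and 4.93 in promyelocytes (6.01 ± 0.20, 64.6-fold). Its myelocyte mean was 6.74. Tlr13, which senses bacterial ribosomal RNA, averaged 10.23 in granulocytes and a dim 4.10 in promyelocytes (at least 52.8-fold), and Tlr8 rose at least 13.4-fold. Tlr4, the endotoxin receptor, rose by 2.85 ± 0.24 (7.21-fold) and Tlr2, the lipopeptide receptor, by 2.66 ± 0.22, while Tlr9 (-0.27) and Tlr1 (-0.04) did not pass and Tlr3 was dim in both groups.

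Of 20 growth factor and cytokine receptors and ligands 14 rose and 2 fell, the 2 that fell being Kit, a sort antigen, and Flt3, a receptor of early progenitors (4.85 in granulocytes and 6.92 in promyelocytes). Csf3r, the receptor of the granulocyte growth factor G-CSF, read 11.95, 11.65 and 11.93 in granulocytes, against 8.40, 8.48 and 8.34 in promyelocytes (3.44 ± 0.14, 10.8-fold). Il1r2, the decoy receptor of interleukin-1, rose by 5.80 ± 0.18 (55.7-fold), and Il18rap by 4.45 ± 0.16. Csf1r, the macrophage growth factor receptor, did not pass (0.34 ± 0.36), with overlapping arrays. Il10ra (1.22), Ifnar1 (1.11) and Il6ra (1.03) rose by little more than the limit. Il10ra lost its call without promyelocyte array 2 (0.92) and Ifnar1 without promyelocyte array 3 (0.91). Il6ra lost it without promyelocyte array 2 (0.95) or granulocyte array 3 (0.88), and with median centring or quantile normalization (0.94 each). With array weights neither Ifnar1 (0.96) nor Il6ra (0.99) was called.

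Adhesion genes divided by partner. Of 19 measured 11 rose and 4 fell. The β2 integrin chains rose together, with Itgam, the CD11b chain, up by 4.42 ± 0.12 (21.4-fold), Itgb2 by 4.04 ± 0.16 (16.5-fold), Itgax by 2.23 and Itgal by 1.99. The β1 integrin chain Itgb1 fell by 1.96 ± 0.18 (3.88-fold) and its partners Itga6 and Itga5 fell by 1.66 and 1.23, while Itga4 did not reach the fold limit at -0.79. Pecam1, an endothelial and leukocyte adhesion molecule, fell by 2.16 ± 0.32. Of 20 kinases and regulators of motility 16 rose and 1 fell, with a median of 1.35. The Src family kinase gene Fgr rose by 5.72 ± 0.16 (52.8-fold), with 10.81, 10.75 and 11.05 in granulocytes and 4.99, 4.96 and 5.48 in promyelocytes. The other increases were smaller, from 1.00 (Was, not called without array 3 of either group, at 0.95) to 3.65 (Stk17b). Median centring (0.91) and array weights (0.94) also removed the call of Was. With a test against a fold of 2 the number that rose was 9. Rgs1, a brake on G protein signals, was dim in granulocytes at 4.31, against 6.27 in promyelocytes.

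Several messages for inflammatory mediators were higher in granulocytes, and the study describes no stimulus of these cells. Any effect of harvest, staining or sorting was not tested. Of 22 measured 13 rose and 2 fell, with a median of 1.65. Il1b, the interleukin-1β gene, read 10.65, 10.53 and 10.67 in granulocytes and a dim 4.15, 4.34 and 3.98 in promyelocytes (at least 68.9-fold), with a myelocyte mean of 6.62. Ptgs2, the inducible cyclooxygenase, read 10.78, 10.93 and 11.38 in granulocytes and 5.59, 5.88 and 7.02 in promyelocytes. The third array was the highest in each group for Ptgs2, which rose by 4.87 ± 0.50 (29.2-fold). The chemokine gene Ccl6 rose by 5.33, the receptor antagonist gene Il1rn by 4.51 ± 0.21, and Alox5, which starts leukotriene synthesis, by 3.94 ± 0.23. Ccl3 (1.19 ± 0.43) was called with overlapping arrays and lost the call without promyelocyte array 1 (0.94) or 2 (0.96) or granulocyte array 1 (1.21) or 3 (1.00). Its call was also lost with loess normalization (1.14). Il1a, Nos2 and Arg1 were dim in both groups. Tnfsf10, a death ligand gene, was dim in granulocytes at 3.66 and read 6.02, 6.43 and 4.33 in promyelocytes, and the chemokine gene Ccl9 fell by 2.67 ± 0.47 (6.34-fold). Of 9 inflammasome genes, Nlrp3 (3.46 ± 0.40, 11.0-fold), Naip2, Casp4 and Gsdmd rose, Casp1 (0.44) and Pycard (-0.31) did not pass, and Nlrc4 fell to a dim 3.79 in granulocytes, against 5.95 in promyelocytes (at least 2.71-fold).

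Genes that damp signals rose with the mediators. Of 20 feedback inhibitors and mRNA decay factors 13 rose and 1 fell, with a median of 1.90. Zfp36, which binds and destabilises AU-rich messages, read 11.41, 11.56 and 11.49 in granulocytes and 8.23, 8.45 and 9.50 in promyelocytes (2.76 ± 0.25, 6.79-fold). Dusp1, a MAP kinase phosphatase, rose by 2.91 ± 0.35 and Socs3, a cytokine signalling inhibitor, by 2.76 ± 0.28. Nfkbia (0.62) and Tnfaip3 (0.28), both inhibitors of NF-κB, did not pass. Dusp2, another phosphatase of the Dusp1 family, fell by 2.09 ± 0.22 (4.27-fold). Of 21 genes of the AP-1, Egr, Klf and Nr4a families 14 rose and 1 fell, with a median of 1.83. Junb rose by 2.78 ± 0.23, Fosl2 by 2.78 ± 0.28, Fos by 2.53 ± 0.36 and Klf2 by 2.91 ± 0.41. Promyelocyte array 3 was the highest of its group for Atf3 and Fosb, both immediate early genes. Atf3 read 7.82, 7.59 and 8.36 in granulocytes and 5.40, 5.42 and 7.43 in promyelocytes, and Fosb, which was not called, read 8.17, 8.19 and 8.84 in granulocytes and 7.65, 7.69 and 9.72 in promyelocytes. Over the whole family list the promyelocyte arrays had mean levels of 6.55, 6.43 and 7.21, and the granulocyte arrays 8.16, 8.15 and 8.37. The only decrease, of Klf4 (-1.11 ± 0.37), had overlapping arrays and was lost without promyelocyte array 1 (-0.87) or granulocyte array 2 (-0.89) or 3 (-0.99). Klf4 was also not called with 75th percentile centring or array weights (-0.89 each).

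Regulators of the lineage itself moved in both directions. Of 26 transcription factors of granulopoiesis 10 rose and 6 fell. Bcl6, a transcriptional repressor, rose by 4.25 ± 0.14 (19.1-fold), Rara, the retinoic acid receptor α, by 3.48 ± 0.20 (11.2-fold), and Spi1, which encodes PU.1, by 1.77 ± 0.17. The C/EBP family did not move as 1 group. Cebpd (1.93 ± 0.23) and Cebpb (1.72 ± 0.27) rose, Cebpa fell by 1.56 ± 0.30 (2.95-fold), and Cebpe had a difference of 0.81, under the fold limit, with stage means of 7.71 in promyelocytes, 9.84 in myelocytes and 8.52 in granulocytes. Irf8, a factor of monocyte fate, read 5.69, 5.80 and 5.81 in granulocytes and 10.08, 9.07 and 9.73 in promyelocytes. Myb, which sustains progenitors, read 7.08, 7.34 and 7.07 in granulocytes and 10.53, 10.83 and 10.58 in promyelocytes. Irf8 fell by 3.86 ± 0.29 (14.5-fold) and Myb fell by 3.48 ± 0.14 (11.2-fold). Gfi1, a repressor needed for neutrophil development, fell by 1.94 ± 0.14. In the Myc and Mxd network, where Mxd proteins compete with Myc for the partner Max, Mxd1 rose by 4.69 ± 0.17 (25.9-fold), Max by 1.94 ± 0.12 and Mxi1 by 1.60 ± 0.12, Myc fell, and the other 8 of 12 genes did not pass. Of 21 stem and progenitor genes 10 fell and 11 did not pass. Cdk6, a kinase of early G1 that progenitors carry, fell by 3.95 ± 0.15 (15.5-fold), and the homeobox gene Meis1 fell by 3.03 ± 0.27. Angpt1, the angiopoietin-1 gene, fell to a dim 3.08 in granulocytes, against 7.38 in promyelocytes (at least 7.29-fold). Erg (0.19), Hhex (0.85) and Lmo2 (-0.82) did not pass.

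Interferon response genes rose in 22 of 27 cases, none fell, and the median was 2.28, or 2.16 with dim means set to 4.51. Oas3, a synthase of the antiviral 2-5A signal, read 9.23, 9.37 and 9.78 in granulocytes, against 4.76, 5.33 and 4.59 in promyelocytes (4.57 ± 0.22, 23.7-fold). Irf7, a factor that amplifies interferon production, rose by 3.84 ± 0.22 (14.4-fold) and the antiviral gene Rsad2 by 3.81 ± 0.15. The schlafen genes Slfn1, Slfn4, Slfn2 and Slfn5 all rose, and Ifitm6 rose by 6.06 ± 0.36 with promyelocyte values of 7.09, 6.64 and 5.11. Mx1 and Mx2 were dim in both groups, and Ifit2 did not pass (-0.14).

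All 27 DNA replication genes measured fell, with a median of -3.23, or -3.08 with dim means set to 4.51. Gins2, a subunit of the replicative helicase (-1.09), lost its call without promyelocyte array 2 (-0.97) and with 75th percentile centring (-0.86), quantile (-0.87) or loess normalization. The 6 subunits of the MCM helicase fell by 2.75 (Mcm4) to 4.60 (Mcm3). Mcm3 read 4.91, 5.42 and 5.96 in granulocytes and 10.29, 10.42 and 9.39 in promyelocytes (24.3-fold). Prim1, the primase subunit, was dim in granulocytes at 3.80, against 8.61 in promyelocytes (at least 17.1-fold). Pcna, the sliding clamp, kept a higher signal on 1 array, with 7.75, 9.14 and 7.88 in granulocytes and 11.48, 11.39 and 10.46 in promyelocytes. All 23 mitosis genes fell, with a median of -3.05, or -2.96 with dim means set to 4.51. Top2a, the topoisomerase of dividing cells, read 5.98, 7.16 and 6.39 in granulocytes and 10.31, 10.30 and 10.06 in promyelocytes (3.72 ± 0.30 lower, 13.1-fold). Granulocyte array 2 was the highest of its group for both Pcna and Top2a, and over the mitosis list the granulocyte arrays had mean levels of 4.96, 5.82 and 5.38, against 8.40, 8.41 and 8.21 for promyelocytes. Of 17 DNA repair genes 16 fell, among them the damage kinase gene Atm, dim at 3.68 in granulocytes and at 7.77 in promyelocytes (at least 9.59-fold). Fanca (-0.87) stayed under the fold limit.

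The genes that decide entry into the cycle were divided. Of 22 G1 cyclins, CDK inhibitors and E2F factors 13 fell and 5 rose. Cdk4, the kinase of early G1, read 6.04, 6.58 and 5.80 in granulocytes, against 11.38, 11.46 and 10.68 in promyelocytes, and fell by 5.03 ± 0.22 (32.7-fold, adjusted p = 5.77e-11). The D cyclins differed in direction, as Ccnd2 fell by 2.45 ± 0.22 and Ccnd1 fell by 1.15 ± 0.17, while Ccnd3 rose by 1.84 ± 0.19. Cdkn2d (2.57 ± 0.16, 5.92-fold) and Cdkn1b (1.82 ± 0.13, 3.53-fold), which encode the CDK inhibitors p19 and p27, rose, and Cdkn2c, which encodes p18, fell by 1.53 ± 0.25. E2f2 rose by 2.75 ± 0.20 (6.73-fold) to 8.45 in granulocytes, against 5.70 in promyelocytes, whereas E2f1, E2f4, E2f5, E2f7 and E2f8 fell. With 75th percentile centring E2f4 (-0.86), E2f5 (-0.87), E2f7 (-0.94) and Ccnd1 (-0.93) were not called, nor were E2f4 and E2f7 with quantile normalization, or E2f5 without promyelocyte array 2 (-0.94). The retinoblastoma gene Rb1 rose by 1.04 ± 0.18, but was not called without promyelocyte array 3 (0.94) or granulocyte array 3 (0.93). With median centring (0.95) or array weights (0.93) Rb1 was not called either. Its relative Rbl1 fell by 2.50 ± 0.23.

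Messages for ribosome assembly were lower. Of 29 ribosome biogenesis genes 28 fell, with a median of -3.49. Nop58, a core protein of the box C/D particles that methylate ribosomal RNA, was dim in granulocytes at 4.22, 4.43 and 4.54 and read 9.79, 9.91 and 9.25 in promyelocytes (at least 35.3-fold lower, adjusted p = 9.79e-12). Dkc1, the pseudouridine synthase of the box H/ACA particles, was dim in granulocytes at 4.26, 4.33 and 4.88 and read 9.42, 9.87 and 9.46 in promyelocytes (at least 33.7-fold lower). For both genes every promyelocyte array was more than 4 log2 units above every granulocyte array. The GTPase gene Gnl3 (at least 23.9-fold) and the ribosome assembly gene Rrs1 (at least 11.5-fold) also fell into the dim range, and Npm1, nucleophosmin, fell by 4.33 ± 0.22 (20.1-fold). Pa2g4, a growth-regulated protein of the ribosome surface that was named for the size of its change, fell by 5.12 ± 0.16 (34.7-fold). Polr1a, the large subunit of RNA polymerase I, was the exception at 0.93 ± 0.14, higher on every granulocyte array (9.05, 9.12 and 9.08) than on the promyelocyte arrays (8.13, 8.33 and 7.99) but under the fold limit, while its partner Polr1b fell by 3.55 ± 0.20.

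The promoter of Nop58, the largest decrease of its list, is shown as the example of genes that fell, and it holds an E2F motif. The 300 bases again run from 250 before to 50 after the start on the + strand, from RefSeq in build GRCm38.p6 at chr1:59684756-59685055, and the capitals mark an E2F motif (TTCCCGC on the other strand).
Nop58: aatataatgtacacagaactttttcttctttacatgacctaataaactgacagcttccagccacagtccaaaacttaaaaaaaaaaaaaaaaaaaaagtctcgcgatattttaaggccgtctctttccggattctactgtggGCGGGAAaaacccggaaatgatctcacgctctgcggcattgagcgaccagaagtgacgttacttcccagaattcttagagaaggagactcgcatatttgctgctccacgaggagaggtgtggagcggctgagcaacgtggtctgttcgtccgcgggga
Of the genes tested, 15613 had at least 1 RefSeq promoter and 12976 had exactly 1, and only these were searched on both strands. The E2F letters TTCCCGC were in 12.3% of 2195 promoters of genes that fell and 5.71% of 1243 promoters of genes that rose, beside 6.48% of all. The E-box CACGTG, the site bound by Myc and Max, was in 12.1% of promoters of genes that fell and 9.41% of those that rose, beside 8.27% of all. The PU.1 letters GAGGAAG were in 17.9% of promoters of genes that rose and 11.8% of those that fell, beside 12.9% of all, and the C/EBP letters TTGCNNAA were in 10.5% and 7.47% of the same sets, beside 9.73% of all. No test was made of these shares.

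Of 19 aminoacyl-tRNA synthetases 17 fell, with a median of -1.74. Iars, which charges isoleucine, fell by 4.58 ± 0.17 (24.0-fold), and Farsb, a subunit for phenylalanine, fell by 4.02 ± 0.15 (16.2-fold). Sars (-0.99) and Cars (-0.38) did not pass. Of 21 translation factors 16 fell, with a median of -1.66. Eef1e1, a scaffold protein of the synthetase complex, fell by 4.17 ± 0.17, Eif3b fell by 3.70 ± 0.18 and Eif4e, which binds the cap, fell by 2.52 ± 0.21. Eif4ebp1, the inhibitor of Eif4e, was higher by 0.87 ± 0.16 and did not reach the fold limit. Among 20 chaperonins and heat shock proteins all fell, with a median of -2.90. Cct3, a subunit of the ring that folds actin and tubulin, read 5.00, 5.95 and 5.28 in granulocytes and 9.95, 10.18 and 10.40 in promyelocytes (27.2-fold lower). Hspa9, the mitochondrial Hsp70, fell by 4.67 ± 0.15 (25.5-fold), and Hspa8, the constitutive Hsp70 of the cytosol, fell by 1.39 ± 0.14 (2.62-fold).

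Of 13 polyamine and one-carbon genes 9 fell and 2 rose, with a median of -2.96. Srm, the spermidine synthase, read 4.91, 5.33 and 5.14 in granulocytes and 9.97, 10.27 and 10.06 in promyelocytes (4.97 ± 0.19 lower, 31.4-fold). Odc1, which makes putrescine, fell by 2.96 ± 0.23, whereas Sat1, which acetylates polyamines for breakdown, rose by 2.09 ± 0.23 (4.25-fold) and the antizyme gene Oaz2 rose by 1.28 ± 0.17. The mitochondrial serine hydroxymethyltransferase gene Shmt2 was dim at 4.25 in granulocytes, against 8.69 in promyelocytes (at least 18.2-fold). Of 23 nucleotide synthesis genes 19 fell and 1 rose, with a median of -3.04. Atic, which closes the purine ring, fell by 4.65 ± 0.18 (25.2-fold). Ppat, which opens the pathway, fell by 4.44 ± 0.23 (21.8-fold). Dck, the salvage enzyme for deoxycytidine, rose by 2.27 ± 0.20 (4.82-fold).

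Genes of energy metabolism changed unevenly. Of 30 oxidative phosphorylation genes 19 fell and 11 did not pass, with a median of -1.37. Ndufs3, a subunit of complex I, fell by 2.43 ± 0.20 (5.39-fold), and Atp5g1, of the ATP synthase ring, read 6.45, 6.43 and 6.44 in granulocytes and 9.23, 8.90 and 8.56 in promyelocytes. With a test against a fold of 2 the number was 12. Of 20 citric acid cycle genes 14 fell, with a median of -1.34, led by the isocitrate dehydrogenases Idh2 (23.7-fold) and Idh3a (23.0-fold) and the fumarase Fh1 (17.0-fold), while the citrate synthase Cs (-0.45) and malate dehydrogenase Mdh2 (-0.05) did not pass. With that stricter test 7 fell. Of 23 genes of glucose uptake, glycolysis and glycogen 8 rose and 4 fell. Slc2a3, a glucose transporter, read 12.07, 11.91 and 12.12 in granulocytes and 6.84, 7.33 and 6.45 in promyelocytes (5.16 ± 0.23, 35.8-fold). Pfkfb4, which sets the level of the activator of phosphofructokinase, rose by 3.88 ± 0.15 (14.8-fold) and Pygl, which releases glucose from glycogen, by 3.18 ± 0.14. Of the glycolytic enzymes Pkm (0.72), Ldha (0.28) and the hexokinase Hk1 (-0.76) did not pass, and Tpi1 fell by 1.42 and Pfkl fell by 1.76. The hexokinase Hk3 rose by 1.02, but was not called without promyelocyte array 3 (0.89) or granulocyte array 1 (0.96). Its call was also lost with median centring (0.93), loess normalization (1.0) and array weights (0.97). Of 18 genes of cholesterol synthesis and related lipids 6 fell and 1 rose. The desaturase gene Scd2 fell by 4.24 ± 0.21 (18.9-fold) and Fasn, the fatty acid synthase, by 3.43 ± 0.18 (10.8-fold). Msmo1, a sterol oxidase, rose by 2.49 ± 0.21, and the rate-setting regulators Srebf2 (0.64) and Insig1 (-0.43) did not pass.

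Autophagy and vesicle genes rose by moderate amounts. Of 26 autophagy and lysosome genes 16 rose and 2 fell, with a median of 1.18. Atg7, the enzyme that activates the ubiquitin-like proteins of autophagy, read 10.69, 10.45 and 10.65 in granulocytes and 8.17, 8.16 and 7.75 in promyelocytes (2.57 ± 0.15, 5.93-fold). Map1lc3b rose by 2.25 ± 0.22, and Tfeb, a factor that switches on lysosomal genes, by 2.11 ± 0.16. Gabarapl1, of the same family as Map1lc3b, fell by 2.36 ± 0.23 (5.13-fold), although its relatives Gabarap (1.59) and Gabarapl2 (1.55) rose. Of 21 vesicle traffic genes 11 rose and none fell, with a median of 1.15. The syntaxin gene Stx11, needed for granule release in cytotoxic cells, rose by 3.68 ± 0.20 (12.8-fold), Rab3d by 2.45 ± 0.18 and Snap23, part of the fusion complex, by 2.20 ± 0.20. With a test against a fold of 2 the number that rose was 6.

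Genes of survival and death showed single large changes rather than a common one, since 12 of 19 did not pass. Mcl1, the survival protein of neutrophils, rose by 2.01 ± 0.19 (4.04-fold) and Bcl2l1 by 1.23 ± 0.13. Bcl2 read 5.64, 5.62 and 5.53 in granulocytes and 8.50, 8.33 and 8.53 in promyelocytes, and fell by 2.86 ± 0.13 (7.24-fold). Fas, the death receptor, averaged 8.63 in granulocytes and a dim 4.19 in promyelocytes (at least 17.4-fold). Of the death effector genes Bmf (1.38) and Pmaip1 (1.14) rose, the last not called without granulocyte array 1 (0.96), while Bcl2l11 (0.62), Bbc3 (0.09) and Bak1 (-0.50) did not pass.

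Of 23 nuclear envelope and related genes 3 rose and 12 fell, beside 10.1% and 16.3% of all genes. Syne1, a giant linker of the nucleus to the cytoskeleton, rose by 3.76 ± 0.19 (13.6-fold) and Syne2 by 2.62 ± 0.20. Lbr, the lamin B receptor needed for nuclear lobes, rose by 1.23 ± 0.26. Lbr was not called without promyelocyte array 3 (0.89) or with array weights (0.94). The A-type lamin Lmna (0.45) and Lmnb1 (0.62) did not pass, and Lmnb2 fell by 1.83 ± 0.14. All 8 nucleoporins measured fell, by 2.40 (Nup160) to 4.12 (Nup205). Of 22 epigenetic regulators 10 fell and 4 rose, beside the same shares of all genes. The histone demethylase gene Kdm7a rose by 4.28 ± 0.22 (19.4-fold) and Kdm6b by 2.75 ± 0.23. Of the alternative Polycomb methyltransferases Ezh1 rose by 1.54 ± 0.14 (2.91-fold) and Ezh2 fell by 2.97 ± 0.24 (7.86-fold). Cbx5, heterochromatin protein 1α, fell by 3.93 ± 0.27 (15.2-fold) and the maintenance methyltransferase Dnmt1 by 2.73 ± 0.17.

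The study named Mef2c, Bcl2, Mybl2 and Ezh2, which it describes as microRNA targets already known, for this pair of stages, and all 4 fell. They were chosen by the study on these samples, so the count is not independent evidence of a direction. Mef2c, a transcription factor of early myeloid and lymphoid progenitors, read 5.73, 5.74 and 6.27 in granulocytes and 7.71, 7.96 and 7.59 in promyelocytes (1.84 ± 0.18 lower, 3.58-fold). Mybl2, a regulator of mitotic genes, read 6.10, 5.31 and 6.13 in granulocytes and 8.74, 8.49 and 8.14 in promyelocytes (2.61 ± 0.23 lower, 6.09-fold). Ezh2 read 6.23, 6.69 and 6.37 in granulocytes and 9.41, 9.57 and 9.23 in promyelocytes. The arrays of both groups were apart for each of the 4 genes. Their myelocyte means were 5.87 for Mef2c, 6.35 for Bcl2, 6.77 for Mybl2 and 8.39 for Ezh2.

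**Figure D4:**
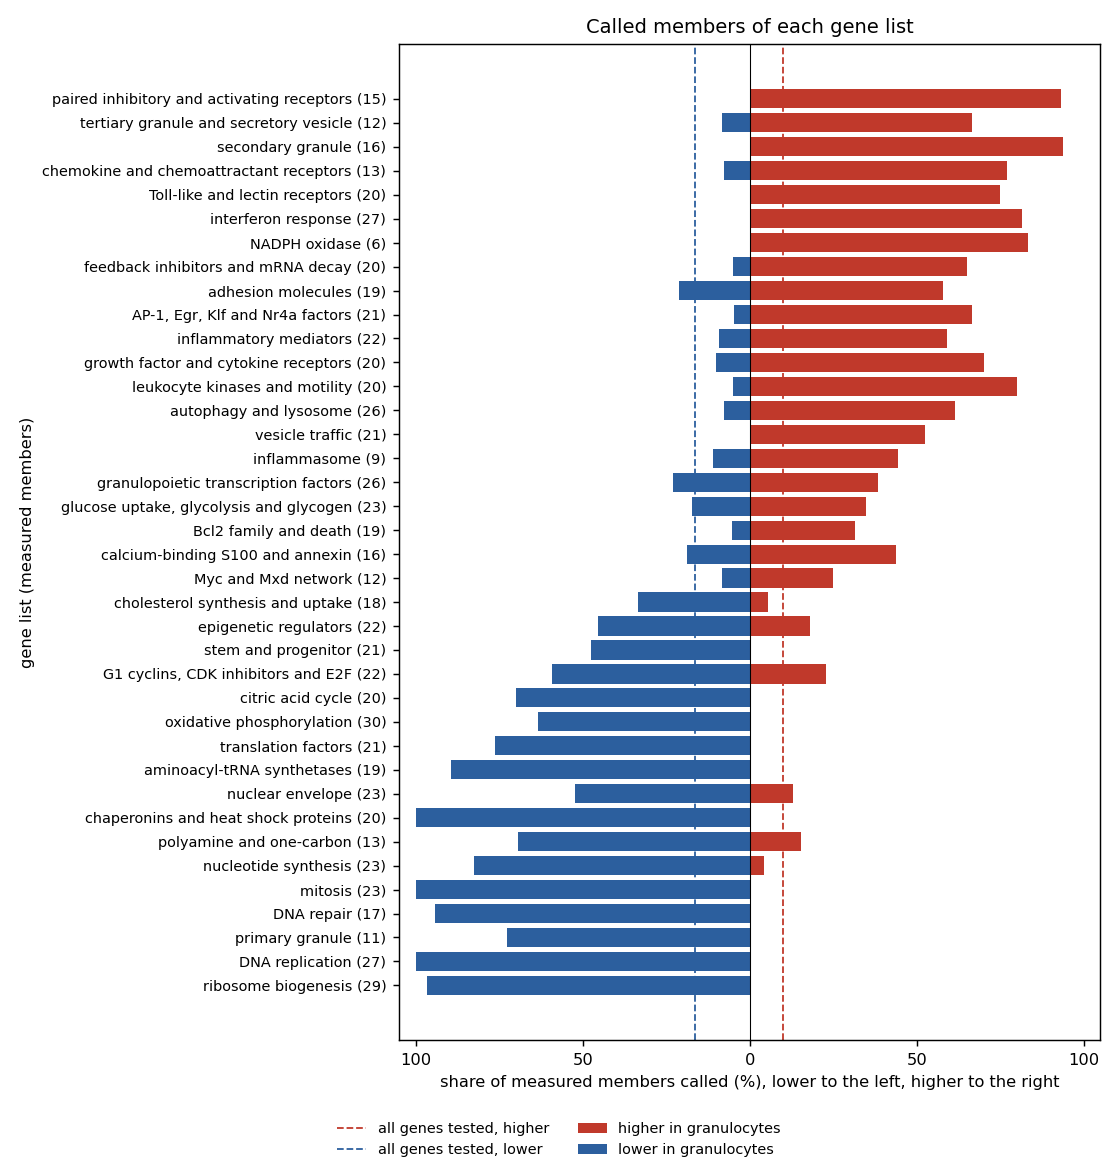
For each gene list the bars give the share of measured members called higher (to the right) or lower (to the left) in granulocytes, in percent, and dashed lines give the shares over all genes, 10.1% higher and 16.3% lower. The replication, mitosis and chaperonin lists had every member lower. Higher were 14 of 15 genes on the paired receptor list and 15 of 16 secondary granule genes.

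Myelocyte levels are given for the lists and genes where they add to the end stages. The mean level of the secondary granule list was 7.80, 6.95 and 6.99 on the promyelocyte arrays, 11.61, 11.53 and 11.44 on the myelocyte arrays and 11.28, 11.34 and 11.10 on the granulocyte arrays. Mitosis genes had mean levels of 7.46, 8.52 and 8.39 in myelocytes, nearer to promyelocytes than to granulocytes, while ribosome biogenesis genes had 9.03, 9.20 and 8.75 in promyelocytes, 6.44, 6.45 and 6.36 in myelocytes and 5.40, 5.72 and 5.60 in granulocytes. Myelocyte means were ranked against both other means only among genes called between the end stages without overlap, under the naming rule given below. Genes not called between the end stages were not ranked. Within that set the myelocyte mean was above both others by the widest margins for Orm1 and Zmpste24. Zmpste24, a protease that processes prelamin A, was at 9.03 in promyelocytes, 11.77 in myelocytes and 10.13 in granulocytes. In the same set the myelocyte mean was below both others by the widest margin for Fgl2, at 8.29 in promyelocytes, 6.28 in myelocytes and 9.59 in granulocytes. Inhba, an activin subunit gene, was at a dim 4.50 in promyelocytes, 9.35 in myelocytes and 7.75 in granulocytes, so that its difference between the end stages took in only part of its range. Mcpt8, one of the basophil genes given above, was also highest in myelocytes, at 10.94.

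**Figure D5:**
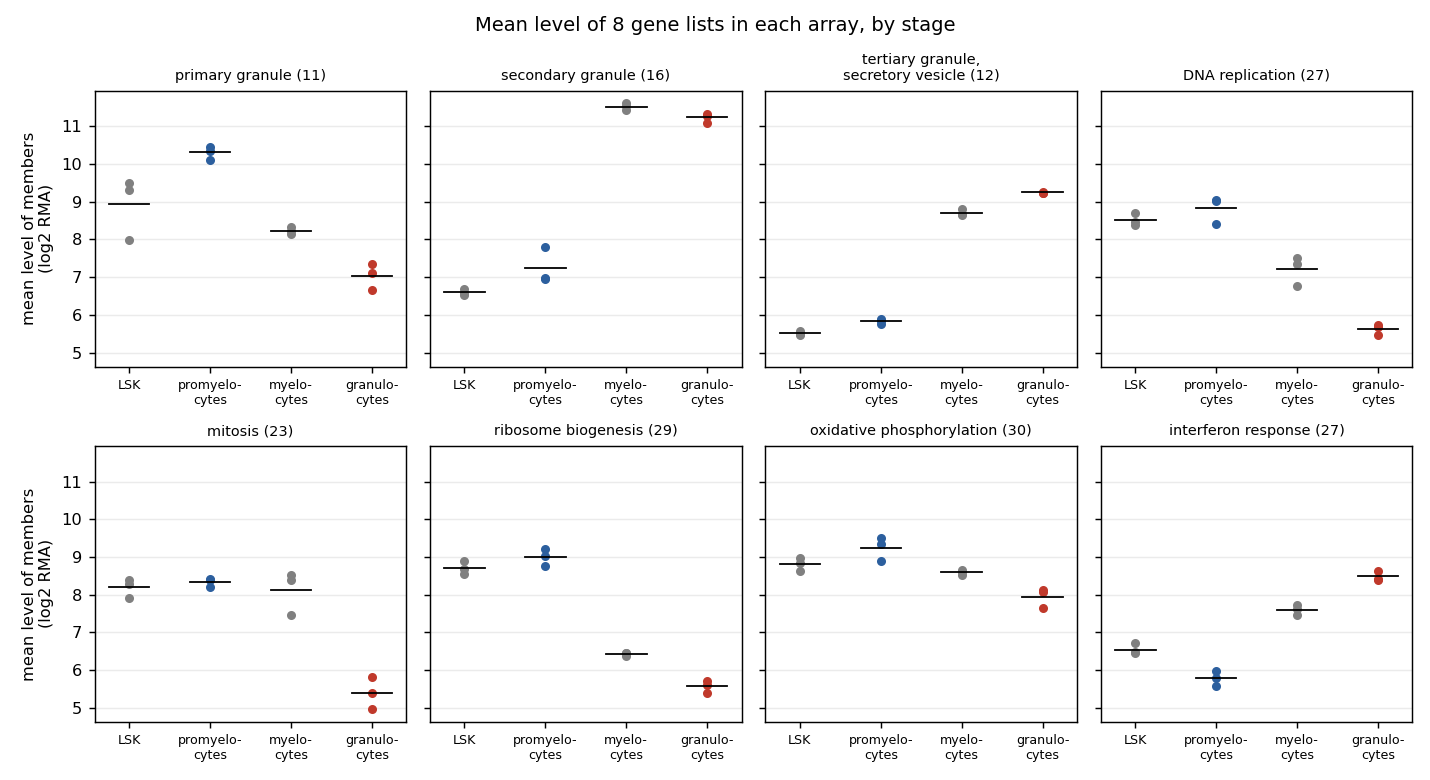
Mean log2 level of 8 gene lists on each of the 12 arrays, 3 for each stage, in the order of the stages from LSK cells through promyelocytes and myelocytes to granulocytes. Secondary granule genes were at 11.10 to 11.34 in granulocytes and 6.95 to 7.80 in promyelocytes, and mitosis genes at 4.96 to 5.82 in granulocytes and 8.21 to 8.41 in promyelocytes.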

How the data were processed

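The authors measured total RNA on 1-colour Affymetrix Mouse Gene 1.0 ST arrays, 3 for each of 4 populations. The deposited values are log2 signals that the authors made with justRMA (background correction, quantile normalization and median polish; its version is not given in the sources used here), and they were not normalized again. Array medians lay between 4.96 and 5.12. No 2 arrays were identical, and 0 columns were unmapped. Of 34760 rows, 21640 named a single gene, 1321 named several and 11799 named none. Only the first kind was used, and a gene was read from its brightest row on average over the 12 arrays, leaving 19937 genes, 954 of them with several rows, which were called in opposite directions for 4. Reference gene identifiers matched 21553 rows and changed 0 symbols.

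The fit used limma 3.58.1 (lmFit, eBayes) under R 4.3.3, with 4 group means over 12 arrays (8 residual and 7.02 prior degrees of freedom, median within-group SD 0.21), and p-values were adjusted by Benjamini-Hochberg over all genes. The study's supplement shows adjusted p-values, by a method not given in the sources used here, and the unadjusted p was an alternative. Scripts were tested on simulated data. The members, gene lists, tests and the rule for named genes were chosen with earlier results of these data known. Named were the 15 largest increases and decreases among called genes without overlap, then list members. From the same called genes came the 5 highest and 5 lowest in myelocytes, by the gap to both end stages. Sort antigens, genes known only as models and symbols that start with Mir were left out. This removed Ly6g and Mirt2 from the increases and AI506816 and Cd34 from the decreases. Lists are described by counts and medians and not tested. Members without a row of their own were not analysed here, and neither were the study's miRNA measurements.

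Alternatives tried were arrays centred on the median or on the 75th percentile, renormalization by quantiles or by cyclic loess, leaving out dim genes, 2 other choices of row, only the 6 arrays, the replicate number as a block, a mean-variance trend, array weights, the unadjusted p, no fold minimum, a test against a fold of 2, and each array left out in turn.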

Additional observations from a re-analysis of the deposited data

How the results depend on the processing

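With no fold minimum 5114 genes were higher and 4819 lower, and with a test against a fold of 2 (treat) 1262 were higher and 2181 lower, against 2020 and 3247. Centring on the 75th percentile gave 2566 higher and 2744 lower, or 48.3% increases, and median centring 1829 and 3442, or 34.7%, beside 38.4% as deposited. The other alternatives kept both counts within 1.5 times. With 1 array left out in turn, 1955 to 2057 genes were higher and 3131 to 3427 lower. With the replicate number as a block the counts were 2021 and 3248. Deviations of same-numbered arrays correlated at 0.08, 0.07 and 0.11, so the numbers were not taken to pair the samples. Of 588 called genes among the 832 named or listed, 44 lost the call under some alternative other than the test against a fold of 2, 36 of them when 1 array was left out, and 0 changed direction. Dim signal limits the folds of 228 genes that rose and 498 that fell. The cause of these shifts was not tested.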
